A study of Mus musculus with 28 samples.

Results

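The genes described here are the late cornified envelope (Lce) genes and a set of genes of the skin barrier, followed through the healing of a skin wound in the mouse. Members were all genes of the count table whose symbol starts with Lce and a digit, together with 16 listed barrier genes and Lor. This gave 38 of 29068 genes, of which 14 were Lce1, 0 Lce2, 6 Lce3 and 1 Lce6 genes and 17 were not Lce genes, and all 38 passed the filter on low counts. Wild type C57BL/6J (MLKL+/+) mice, 8 weeks old and of both sexes, received a full-depth excisional wound with a 6-mm punch on the back. Tissue of the wound site was taken on Day0, Day3, Day5, Day7, Day10, Day12 and Day14 from different mice, with 4 libraries a day. All groups shared genotype and isoflurane was the anaesthetic for wounding. The labels make Day0 the control, at no days after injury. The paper has no Day0, counts the day of injury as its first day and describes each collection as made after wounding. The sources used here therefore do not settle whether the Day0 tissue was already wounded, nor whether the later day names are offset by a day from the time since injury. The sampled tissue included the scab and the wound margin, so a library could mix epidermis, dermis, hair follicles, muscle, fat and infiltrating cells, in shares that differed between days.

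Total counts ranged from 36706513 to 40655764 a library. The 4 libraries of Day0 fell into 2 pairs, replicates 2 and 3 against replicates 1 and 4. Day5 replicate 4, Day7 replicate 4 and Day14 replicate 3 also differed most from their fellow libraries, with a median chi-square over genes of 4.99 to 5.41, 3.41 to 3.82 and 3.498 to 3.737 against each of these, where the other pairs of these days gave 1.47 to 2.42. The biological coefficient of variation was 26.4% on Day0 and 5.7% to 10.8% on the other days. The fibroblast marker sum varied from 14483 to 55645 CPM (counts scaled to library size) and the hair follicle sum from 277 to 2319 CPM among the Day0 libraries. Results that turn on 1 pair of Day0 libraries are marked where they occur. Nothing in the labels says that the 4 libraries of a day came from separate mice, so the p-values measure the spread between these libraries.

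Keratinocytes of the epidermis end their life as corneocytes, flat dead cells whose plasma membrane has been replaced by the cornified envelope. This envelope is a protein shell cross-linked by transglutaminases, with a coat of ceramides bound to its outer face. Many of its precursors, among them loricrin, involucrin, the Lce proteins and the filaggrin-like S100 fused-type proteins, are encoded side by side in the epidermal differentiation complex. Corneodesmosomes hold the corneocytes together, and lipids secreted from lamellar granules fill the space between them. After wounding, keratinocytes at the margin change their keratins, migrate and later rebuild these layers.

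In this genome (GRCm38, GENCODE vM21 positions) 27 of the 38 members lay on chromosome 3 within 1319.2 kb, from 92080271 to 93399442. The 6 Lce3 genes formed a block of 68.1 kb from 92925287 to 92993426, with the Lce1 genes on either side. The 120 bases before the RefSeq start (GRCm38.p6) are shown for 10 members, chosen by their changes. The 6 Lce3 genes moved together, and Lce1g and Lce1m moved in opposite directions on Day3. On Day5, Day7 and Day10 all Flg libraries lay above, and all Flg2 libraries below, every Day0 library. Capitals mark 4 motifs searched on both strands. They are the AP-1 motif TGANTCA, the TATA box TATAAA, and a pair of motifs chosen after the Lce3 windows had been read, which are TTGNGAAA and the letters ATAAAA. The last of these can overlap the TATA box, and then the joined run is in capitals. The last bases of the Flg window lie inside its GENCODE transcript, which starts at 93273523.
Lce3a (chr3:92926231-92926350, minus strand): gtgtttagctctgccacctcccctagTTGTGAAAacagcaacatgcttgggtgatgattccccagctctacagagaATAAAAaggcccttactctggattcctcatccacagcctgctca
Lce3b (chr3:92932859-92932978, plus strand): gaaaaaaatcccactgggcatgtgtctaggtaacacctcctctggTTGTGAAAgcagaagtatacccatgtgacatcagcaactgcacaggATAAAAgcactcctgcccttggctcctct
Lce3c (chr3:92944366-92944485, plus strand): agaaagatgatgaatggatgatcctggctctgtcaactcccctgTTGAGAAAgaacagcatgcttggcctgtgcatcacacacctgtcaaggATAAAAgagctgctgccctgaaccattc
Lce3d (chr3:92957270-92957389, plus strand): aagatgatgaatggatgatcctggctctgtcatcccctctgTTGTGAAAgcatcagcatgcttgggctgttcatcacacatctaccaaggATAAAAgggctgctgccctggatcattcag
Lce3e (chr3:92966941-92967060, plus strand): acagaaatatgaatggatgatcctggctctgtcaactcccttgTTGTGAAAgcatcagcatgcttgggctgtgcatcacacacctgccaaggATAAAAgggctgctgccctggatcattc
Lce3f (chr3:92992097-92992216, plus strand): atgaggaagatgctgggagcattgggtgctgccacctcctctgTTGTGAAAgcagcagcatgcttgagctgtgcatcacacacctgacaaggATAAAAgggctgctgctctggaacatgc
Lce1g (chr3:92752339-92752458, minus strand): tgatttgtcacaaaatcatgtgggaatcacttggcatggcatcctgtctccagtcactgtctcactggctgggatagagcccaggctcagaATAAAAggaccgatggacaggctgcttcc
Lce1m (chr3:93019062-93019181, minus strand): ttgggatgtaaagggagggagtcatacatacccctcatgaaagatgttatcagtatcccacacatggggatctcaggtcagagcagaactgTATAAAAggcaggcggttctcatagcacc
Flg (chr3:93273426-93273545, plus strand): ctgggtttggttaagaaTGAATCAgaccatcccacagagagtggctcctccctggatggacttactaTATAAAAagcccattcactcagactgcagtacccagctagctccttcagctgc
Flg2 (chr3:93197153-93197272, plus strand): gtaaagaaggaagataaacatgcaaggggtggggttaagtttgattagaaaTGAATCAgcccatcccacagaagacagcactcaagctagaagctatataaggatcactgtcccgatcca

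TTGNGAAA was present in the 250-base window of 6 of 6 Lce3 promoters, at -94 to -68 from the start, and ATAAAA stood 23 to 44 bases before the start in the same 6. Both were chosen after these 6 windows had been read, so the 6 of 6 was known beforehand. Their shares in other windows are description only. These windows are not independent, since the 120 bases shown for Lce3c, Lce3e and Lce3f were 63.3% to 75% identical in ungapped pairs. The Lce3d window holds long runs of the Lce3e window shifted by a few bases, which the ungapped 19.2% of that pair does not show. TTGNGAAA was found in 0 of 13 Lce1 windows, in 0 of 16 windows of the other members and in 4.23% of 32841 RefSeq promoters. ATAAAA was found in 12 of 13 Lce1 windows, in 3 of 16 of the other members and in 16.98% of all promoters. TGANTCA was found in 0 of 6 Lce3 and 0 of 13 Lce1 windows, and in 5 of 16 windows of the others, those of Flg, Flg2, Ivl, Lor and Rptn, against 6.75% of all promoters. TATAAA was found in 1 of 6 Lce3, 2 of 13 Lce1 and 5 of 16 other windows and in 12.37% of all promoters. The Grainyhead-like motif AACNGGTT, the GATA motif AGATAA and the KLF motif GGGNGTGG were each found in 0 of 6 Lce3 windows, against 1.79%, 9.99% and 15.88% of all promoters. A match describes these letters only, and 34 members had a promoter in the table.

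On Day3, 13 of the 38 members were higher and 18 were lower than on Day0 (edgeR's quasi-likelihood test, Benjamini-Hochberg adjusted p under 0.05 over 18107 genes). Over all genes tested, 31.8% were higher and 34.8% were lower, beside 34.2% and 47.4% of the members. All 6 Lce3 genes and Tgm1, the membrane-bound transglutaminase, rose, while 8 of 14 Lce1 genes, loricrin, involucrin, Flg2 and Dsg1a fell. The median member log2 fold change was -0.12, against -0.03 over all genes. By the study's own limit, a log2 fold change over 1.5 with an unadjusted P under 0.05, 7 members were higher and 5 lower, against 6.5% and 12.4% of all genes. In tissue of mixed cells, fewer cells of a type and less RNA per cell cannot be told apart. The summed keratin 1 and 10 signal, which marks the suprabasal epidermis, had a median of 2405 CPM on Day0 and 656 CPM on Day3, and its part in the result was not tested. Scaled to 10 epidermal transcripts instead, on which the median log2 fold change of all genes was 0.70, 22 members were higher and 9 lower on Day3, against 64.1% and 14.2% of all genes on that scale. The leukocyte marker sum had a median of 1989 CPM on Day0 and 8416 on Day3, and its part was not tested either. The skeletal muscle marker sum (8 genes) had a median of 23955 CPM on Day0, with a range of 17810 to 31547, and 4697 on Day3, and all 8 genes were lower than on Day0 on each of the 6 later days, whose part was not tested. For members, values relative to the epidermis are given below where they change the direction or call of a printed log2 fold change. For other genes only counts on that scale are given.

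**Figure D1:**
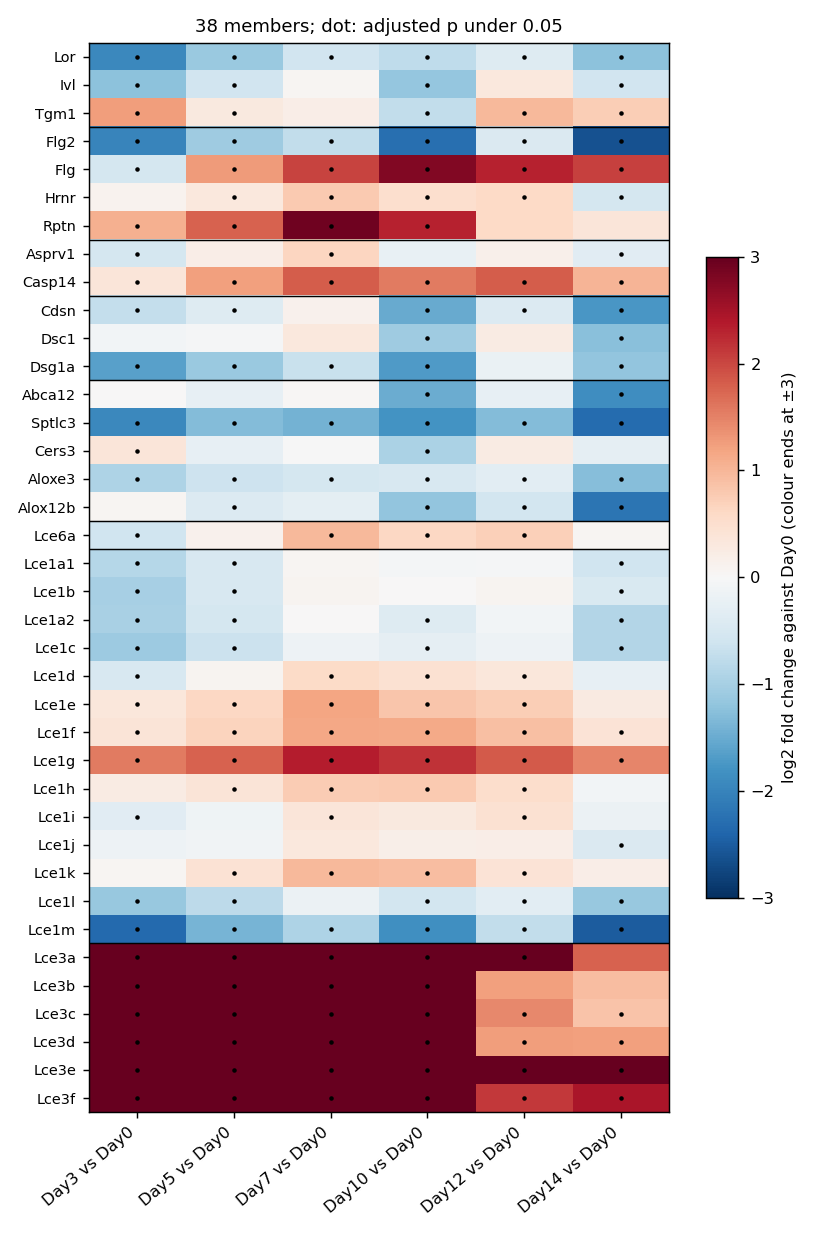
Log2 fold change of the 38 members against Day0 (rows, grouped by role) on 6 days (columns), with the colour scale ending at -3 and 3 and a dot for an adjusted p under 0.05. The 6 Lce3 rows reach the end of the scale from Day3 to Day10, 4 of them still carry a dot on Day14, and the fitted values of Lce3a and Lce3e rest on 1 and 2 counts on Day0.

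The Lce3 genes were nearly silent on Day0 and were read on Day3 to Day10. Lce proteins are small envelope proteins, and the LCE3 group is known for its induction in injured and inflamed human skin. The summed count of the 6 genes was 10 to 54 a library on Day0 and 1429 to 2053 on Day3. It was 663 to 1002 on Day5, 910 to 1375 on Day7 and 778 to 1030 on Day10, and then 71 to 121 on Day12 and 70 to 85 on Day14. No library of Day3 to Day10 overlapped any library of Day0, Day12 or Day14. Lce3 genes gave 0.144% of all Lce counts on Day0, 14.9% on Day3, 5.06% on Day10 and 0.475% on Day12 (means, n = 4).

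**Figure D2:**
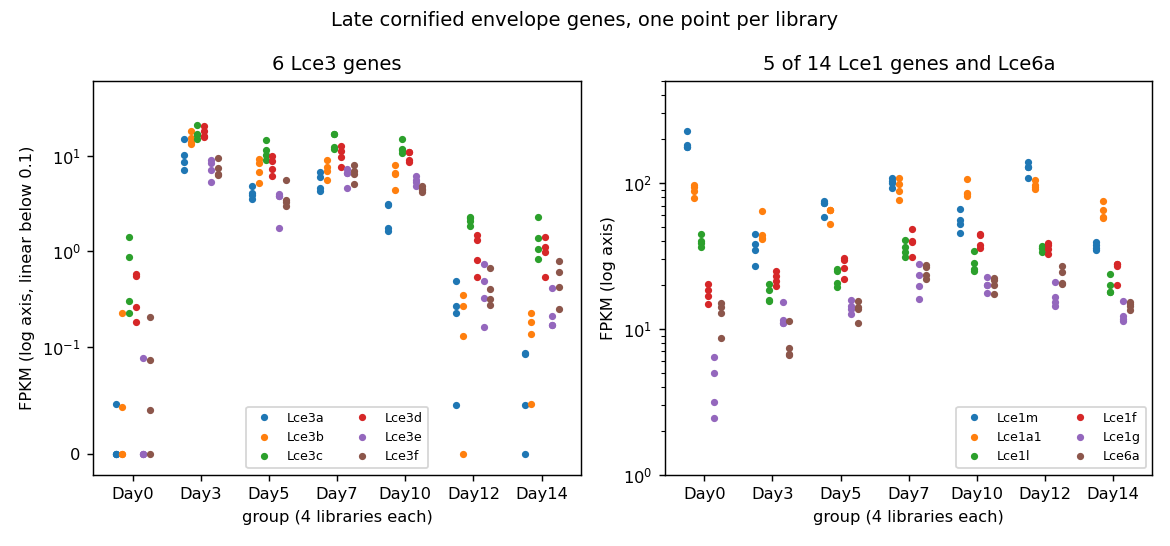
FPKM by day (1 point a library, log axis that is linear below 0.1 on the left) of the 6 Lce3 genes on the left and of 5 Lce1 genes and Lce6a on the right. Lce3c lies between 14.9 and 20.9 on Day3 and between 1.86 and 2.26 on Day12, and Lce1m falls from 176 or more on Day0 to 44.5 or less on Day3.

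Lce3c was the Lce3 gene with the highest mean over all 28 libraries, though below Lce3d on Day3. Its FPKM levels, which are read fragments divided by gene length and depth, were 1.41, 0.306, 0.226 and 0.87 in replicates 1 to 4 of Day0. On Day3 these were 20.9, 16.4, 14.9 and 16.8, and on Day10 11.8, 11.3, 10.6 and 14.9. On Day12 they were 1.86, 2.22, 2.06 and 2.26 and on Day14 1.05, 0.824, 1.39 and 2.26. The Day3 and Day10 values lay above every Day0 value, with log2 fold changes of 4.67 ± 0.32 (SE) and 4.06 ± 0.32. These were 4.01 and 3.35 against Day0 replicates 1 and 4 alone and 6.05 and 5.44 against replicates 2 and 3 alone. Between Day10 and Day12 Lce3c fell by 2.62 on the log2 scale.

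Lce3a was almost unread on Day0. It had 1 count in all 4 Day0 libraries together, 868 counts on Day3, 205 on Day10, 23 on Day12 and 5 on Day14. Its FPKM on Day3 was 14.7, 7.10, 8.52 and 10.2. The ratio of Day3 to Day0 was 865, with a 95% exact interval of 154.8 to 34200.0 for counting error only. Lce3a fell by 7.47 between Day3 and Day14 on the log2 scale.

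Lce3e had 2 counts on Day0, 704 on Day3 and 519 on Day10. Its mean was below that of Lce3a on Day3 (7.43 against 10.1 FPKM) and above it on Day10 (5.44 against 2.38 FPKM). Its ratio to Day0 was 350.8 on Day3, with a 95% exact counting interval of 96.74 to 2902.0, and 256.9 on Day10. The other 4 had 6 to 61 counts on Day0 and 713 to 1533 on Day3. Their log2 fold changes on Day3 were 7.73 ± 0.45 for Lce3b, 4.67 ± 0.32 for Lce3c, 5.52 ± 0.30 for Lce3d and 6.44 ± 0.40 for Lce3f. All 6 fell between Day10 and Day12, by 2.62 to 5.12 on the log2 scale, while 20.7% of all genes were lower in that step. Against Day0 replicates 1 and 4 alone the Day3 values of Lce3b and Lce3f were 7.04 and 5.68, and against replicates 2 and 3 alone those of Lce3b, Lce3d and Lce3f were 9.15, 6.32 and 8.25. In Day0 replicates 2 and 3, Lce3b had 1 and 0 counts and Lce3f had 0 and 1, so 9.15 and 8.25 are fitted values at the floor. On Day14, 4 of 6 were still called higher than on Day0, against 28.2% of all genes. Summed over 4 libraries these had 121 counts against 61 on Day0 for Lce3c, 88 against 34 for Lce3d, 23 against 2 for Lce3e and 50 against 8 for Lce3f. One of them, Lce3c (0.85 ± 0.37), lost its call without Day0 replicate 2 or 3 or Day14 replicate 3 or 4 (0.52 to 0.83). Its Day14 value was 0.21 and not called against Day0 replicates 1 and 4 alone, and 2.23 and called against replicates 2 and 3 alone. Neighbouring Lce3 genes share sequence, since 12.1% of 50-base windows of Lce3b and 49.3% of Lce3d occur in another member, so how reads were split among them is uncertain.

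Wound keratins are given beside the Lce3 genes. Krt16, a keratin of activated keratinocytes, had a mean of 15.7 FPKM on Day0, 335 on Day3, 253 on Day10, 25.9 on Day12 and 17.6 on Day14. Krt6a, its usual partner, had means of 37.1, 360.2, 138.3, 56.3 and 75.0 FPKM on the same days. Among the Day0 libraries Krt16 ran from 6.50 to 35.7 FPKM and Krt6a from 12.5 to 78.1. The next genes on either side of the Lce3 block, 2310050C09Rik and Crct1, and Kprp among the Lce1 genes fell on Day3, and 2310050C09Rik was chosen after its values were seen. Log2 fold changes were -0.75 ± 0.13 (SE) for Kprp, -1.23 ± 0.15 for Crct1 and -1.04 ± 0.12 for 2310050C09Rik. Relative to the epidermal transcripts the median of all genes was 0.70 on Day3, and whether these falls hold on that scale is not shown.

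**Figure D3:**
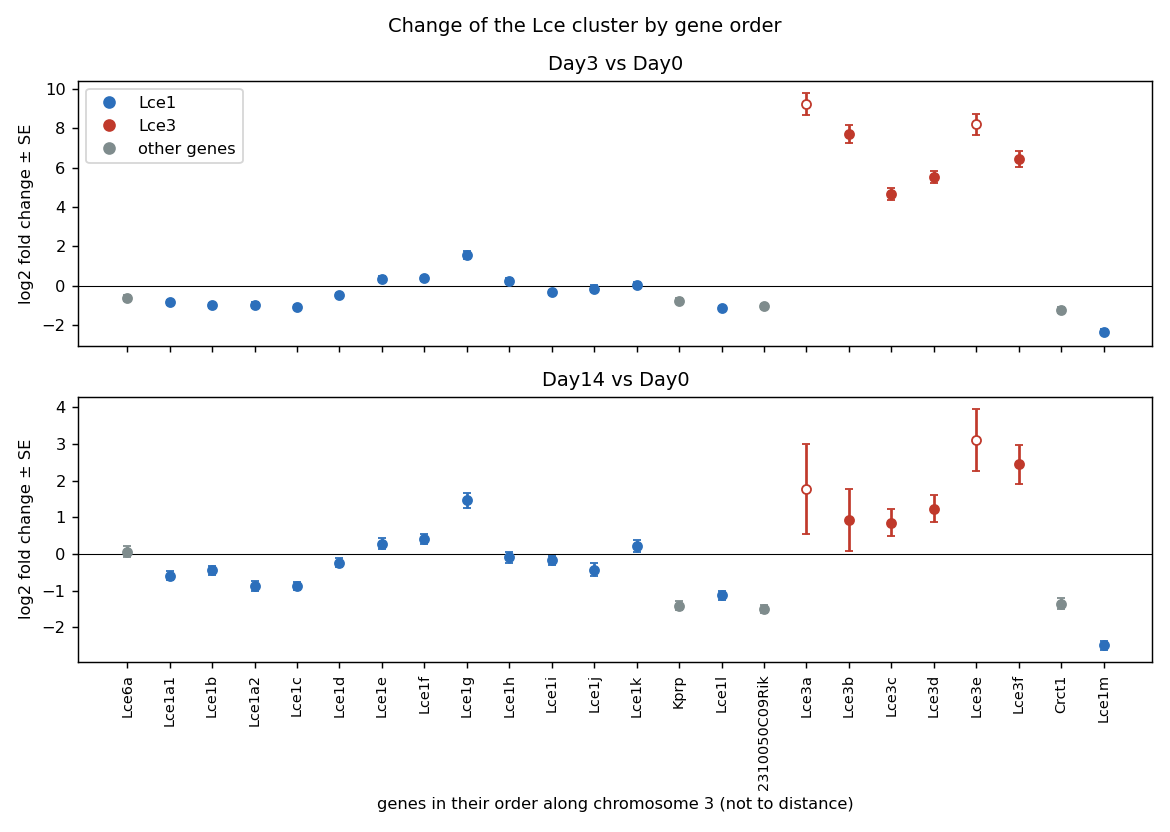
Log2 fold change ± SE of genes of the Lce cluster in their order on chromosome 3, on Day3 and on Day14 against Day0. Lce3c, the lowest of the 6 Lce3 genes on Day3, stands at 4.67, the nearest genes on either side of the Lce3 block are below 0 on Day3, and the hollow points of Lce3a and Lce3e are fitted values that rest on 1 and 2 counts on Day0.

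The Lce1 genes, which are expressed in intact skin, moved in both directions on Day3. Of 14, 8 fell (-0.33 to -2.34), 3 rose (0.34 to 1.57) and 3 were not called. The 8 that fell had Day0 means of 21.3 to 191 FPKM, and the 3 that rose had Day0 means of 4.26 to 17.7 FPKM. The same Day0 libraries enter both quantities, so this is a description only. The highest mean among the 14 was 44.8 times the lowest on Day0, and 5.72 times on Day3. Summed over the family, the signal was 487 ± 43.7 CPM on Day0 (SD, n = 4) and 234 ± 36 on Day3. Relative to the epidermal transcripts, Lce1d (0.26), Lce1i (0.40) and Lce1j (0.61) turned positive on Day3, Lce1a1 (-0.13) and Lce1a2 (-0.27) lost their calls, Lce1h (1.00) and Lce1k (0.81) gained calls, so that all 3 that had not been called were called higher, and Lce1b, Lce1c, Lce1l and Lce1m remained lower. Lce1i lost its call without Day0 replicate 1 or 4 or Day3 replicate 2, 3 or 4 (-0.19 to -0.31), and Lce1e lost it without Day0 replicate 2 (0.27) or Day3 replicate 1 (0.32). Lce1e (0.35) and Lce1f (0.30) were not called against Day0 replicates 1 and 4 alone, and Lce1i (-0.23) was not against replicates 2 and 3 alone. With no composition normalization Lce1e (0.29) was not called.

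Lce1m, the Lce1 gene with the highest mean over all 28 libraries, though below Lce1a1 on Day3, Day10 and Day14, had 183, 176, 226 and 177 FPKM on Day0 and 44.5, 38.3, 35 and 27.1 on Day3. It reached 128, 140.02, 128 and 109 on Day12 and was 34.7, 36.1, 37.5 and 39.6 on Day14. Both Day3 and Day14 lay wholly below Day0, with log2 fold changes of -2.34 ± 0.12 and -2.49 ± 0.12. Lce1m rose by 1.11 between Day10 and Day12 and fell by 1.75 between Day12 and Day14. It shares 0% of its 50-base windows with another member.

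Lce1g went the other way. It had 6.39, 2.46, 3.17 and 4.99 FPKM on Day0, 15.2, 10.9, 11.6 and 10.9 on Day3 and 16, 23.6, 19.8 and 28 on Day7. Every Day3 and Day7 library lay above Day0, with log2 fold changes of 1.57 ± 0.21 and 2.36 ± 0.21, and it was still 1.46 higher on Day14. Against Day0 replicates 2 and 3 alone these were 2.17, 2.96 and 2.06. Of its 50-base windows 17.8% occur in another member. Lce6a, the single Lce6 gene, had 15.1, 12.9, 14 and 8.66 FPKM on Day0, 11.3, 7.39, 6.63 and 6.71 on Day3 and 21.9, 26.7, 23.5 and 27.5 on Day7. Its log2 fold change was -0.61 ± 0.15 on Day3, a sign that turned relative to the epidermal transcripts (0.08, not called), and 0.97 ± 0.15 on Day7.

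Among the envelope proteins and their crosslinker, loricrin and involucrin fell on Day3 while transglutaminase 1 rose. Lor, which encodes the main protein of the envelope, had 215, 156, 189.7 and 229 FPKM on Day0 and 61.2, 48.8, 46.8 and 41.4 on Day3. It climbed to 166, 176, 172 and 154 on Day12 and was 77.5, 86.8, 112 and 89.7 on Day14. The Day3 libraries were all below the lowest Day0 library, with a log2 fold change of -1.94 ± 0.13. On Day14 it was -1.23 ± 0.13. Ivl, the early scaffold on which the envelope is laid, had 20.6, 29.6, 35.5 and 11.5 FPKM on Day0 and 12.1, 9.51, 8.89 and 9.41 on Day3, when its highest library overlapped the lowest of Day0. It was 11.4, 10.6, 10.6 and 12.4 on Day10 and 29.6, 38.3, 35 and 31.6 on Day12. Ivl changed by -1.23 ± 0.19 on Day3 (-0.59 against Day0 replicates 1 and 4 alone) and rose by 1.49 between Day10 and Day12, then fell by 0.89 by Day14.

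Tgm1, the membrane-bound enzyme that cross-links these proteins, had 9.05, 8.20, 9.02 and 5.42 FPKM on Day0 and 19.7, 16.9, 18.6 and 17.4 on Day3, without overlap. It was 4.78, 4.44, 5.20 and 5.44 on Day10, 15, 18.3, 15 and 20.1 on Day12 and 15.9, 15.9, 13.6 and 12.7 on Day14. Its log2 fold change against Day0 was 1.25 ± 0.12 on Day3, -0.73 ± 0.12 on Day10 and 0.75 ± 0.12 on Day14. Relative to the epidermal transcripts the Day10 value was -0.26 and no longer called. Tgm1 and the Lce3 genes were the 7 members whose highest mean fell on Day3.

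**Figure D4:**
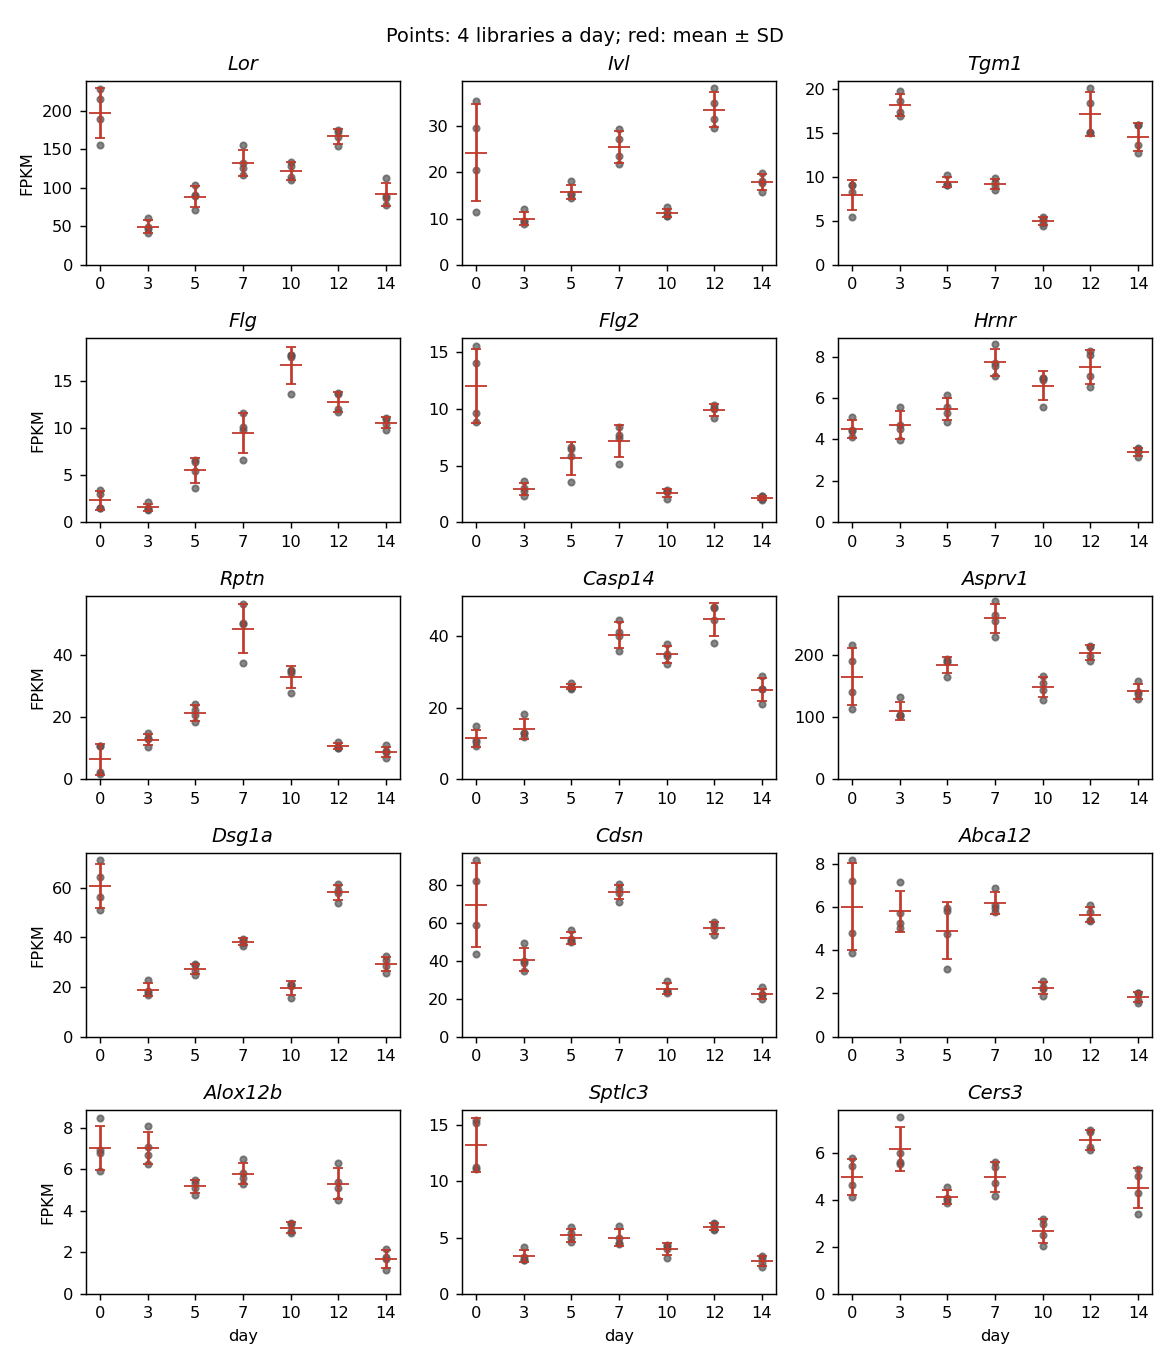
FPKM of 15 members by day (1 point a library, red bars for the mean ± SD of 4 libraries). Lor, Flg2, Dsg1a and Sptlc3 are below Day0 on Day3, while Tgm1 is above it and Flg climbs to its highest level on Day10.

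The 4 S100 fused-type genes took separate paths. Flg encodes profilaggrin, whose filaggrin units bundle keratin and whose breakdown products hold water. It had 2.93, 1.47, 1.44 and 3.41 FPKM on Day0 and 2.10, 1.46, 1.26 and 1.37 on Day3, which overlapped. It then had 6.58, 5.40, 6.33 and 3.60 on Day5, 9.76, 11.6, 10.05 and 6.55 on Day7 and 17.7, 17.5, 13.6 and 17.7 on Day10, all above Day0. On Day14 it was still 9.77, 10.9, 11 and 10.4. The log2 fold change was 2.04 ± 0.23 on Day7, 2.79 ± 0.23 on Day10 and 2.06 ± 0.23 on Day14, and 2.71, 3.46 and 2.74 against Day0 replicates 2 and 3 alone. On Day3 it was -0.52 ± 0.22 (adjusted p = 0.0414), a call that was lost with DESeq2, with the 8 libraries alone, with limma, and without Day0 replicate 1 or 4 or Day3 replicate 2, 3 or 4 (-0.23 to -0.45). Its Day3 sign turned against Day0 replicates 2 and 3 alone (0.15) and relative to the epidermal transcripts (0.26).

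Flg2, a filaggrin-like protein of the same cluster, had 9.68, 14, 15.6 and 8.89 FPKM on Day0, 3.66, 3.03, 2.34 and 2.71 on Day3 and 2.78, 2.69, 2.06 and 2.86 on Day10. It returned to 9.21, 10.3, 10.1 and 9.98 on Day12 and dropped to 2.02, 2.34, 1.94 and 2.28 on Day14. Day3, Day10 and Day14 lay wholly below Day0, with log2 fold changes of -1.98 ± 0.18, -2.27 ± 0.18 and -2.62 ± 0.19. Flg2 rose by 1.84 between Day10 and Day12 and fell by 2.19 between Day12 and Day14. The number of Flg counts per Flg2 count was 0.0609 to 0.253 on Day0, 0.317 to 0.378 on Day3, 0.606 to 0.672 on Day5, 0.832 to 0.910 on Day7 and 4.07 to 4.35 on Day10. It was 0.767 to 0.884 on Day12 and 3.01 to 3.74 on Day14. The ratio thus rose at each step up to Day10, fell on Day12 and rose again on Day14, without overlap between neighbouring days.

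Hrnr, which encodes hornerin, had 4.39, 4.46, 5.08 and 4.09 FPKM on Day0 and 5.58, 4.69, 3.98 and 4.48 on Day3, a difference of 0.11 ± 0.09 that was not called, though relative to the epidermal transcripts it was 0.82 and called. It was 7.05, 8.62, 7.54 and 7.69 on Day7 (log2 fold change 0.77 ± 0.09) and 3.15, 3.54, 3.58 and 3.38 on Day14 (-0.53 ± 0.09). Rptn, which encodes repetin, had 2.43, 10.7, 10.6 and 1.85 FPKM on Day0, where replicates 2 and 3 were far above replicates 1 and 4. It was 14.8, 12.9, 10.2 and 13.2 on Day3 and 37.5, 50.2, 49.96 and 56.3 on Day7, and the Day7 libraries were all above Day0. Its log2 fold change was 1.05 ± 0.32 on Day3, lost with the 8 libraries alone, and 2.92 ± 0.34 on Day7. The size turned on the pair of Day0 libraries, with 0.33 on Day3 and 2.19 on Day7 against replicates 2 and 3 alone and 2.68 and 4.49 against replicates 1 and 4 alone. Between Day10 and Day12 it fell by 1.72.

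Of the proteases that act on profilaggrin, Asprv1 had its highest mean on Day7 and Casp14 on Day12. Casp14, a caspase of terminal differentiation, had 14.9, 9.34, 10.4 and 11 FPKM on Day0, 18.2, 13, 12 and 12.9 on Day3 and 35.9, 40.03, 41.2 and 44.6 on Day7. On Day12 it was 44.7, 47.9, 48.2 and 38.3 and on Day14 20.9, 25.2, 28.9 and 25.1, so that all Day7, Day12 and Day14 libraries exceeded all Day0 libraries. Its log2 fold change was 1.82 ± 0.13 on Day7 and 1.01 ± 0.12 on Day14. On Day3 it was 0.35 ± 0.12 (adjusted p = 0.0148), which was lost with the 8 libraries alone, against Day0 replicates 1 and 4 alone (0.21), without Day0 replicate 2 (0.27) and without Day3 replicate 1 (0.26). Asprv1, an aspartic protease that cleaves the linker of profilaggrin, had 139.96, 191, 215 and 114 FPKM on Day0, 132, 102, 103 and 103 on Day3, 229, 264, 255 and 286 on Day7 and 144, 155, 127 and 166 on Day10. It changed by -0.53 ± 0.13 on Day3, by 0.65 ± 0.13 on Day7 and by -0.86 ± 0.13 between Day7 and Day10. The Day3 call was lost against Day0 replicates 1 and 4 alone (-0.11), and its sign turned relative to the epidermal transcripts (0.14, not called).

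The 3 corneodesmosome genes shared a drop on Day10, a recovery on Day12 and a second drop on Day14. Cdsn encodes corneodesmosin, an adhesive protein of the outer layers. It had 58.6, 81.9, 93.1 and 43.7 FPKM on Day0, 49.1, 39.6, 38.8 and 34.7 on Day3 and 70.9, 77.7, 80.2 and 75.8 on Day7. The values on Day10, Day12 and Day14 were 23, 24.1, 24.1 and 29.3, then 56.5, 60.6, 58.8 and 53.2, then 19.6, 22.2, 25.8 and 21.9. All Day12 libraries lay above all Day10 and Day14 libraries, and the log2 steps from Day7 onward were -1.65 ± 0.15, 1.10 ± 0.15 and -1.34 ± 0.15. On Day3 the change was -0.72 ± 0.14, no longer called against Day0 replicates 1 and 4 alone (-0.24) or relative to the epidermal transcripts (-0.06).

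Dsc1, a desmosomal cadherin of the upper layers, had 16.3, 27.3, 29.3 and 12.3 FPKM on Day0, 23.5, 18.7, 17.4 and 17.2 on Day3, 25.3, 29.5, 26.6 and 25.6 on Day7 and 11.7, 11.3, 8.22 and 10.9 on Day10. It returned to 26.4, 28.1, 28.4 and 28.1 on Day12 and fell to 10.02, 10.4, 9.03 and 9.69 on Day14. The log2 steps from Day7 onward were -1.40 ± 0.17, 1.31 ± 0.17 and -1.49 ± 0.17. The Day3 difference of -0.09 ± 0.17 was not called. It was 0.52 against Day0 replicates 1 and 4 alone, -0.50 against replicates 2 and 3 alone, and 0.55 relative to the epidermal transcripts, each of them called. Dsg1a, the main desmoglein of the upper layers, had 51.2, 64.4, 71.3 and 56.4 FPKM on Day0, 22.8, 18.5, 17.6 and 16.9 on Day3 and 20.9, 21.3, 15.6 and 20.4 on Day10. It was 53.8, 61.5, 59.1 and 58 on Day12 and 32.4, 30.8, 25.5 and 28.5 on Day14. Day3, Day10 and Day14 were wholly below Day0, and the Day3 log2 fold change was -1.63 ± 0.10. It rose by 1.48 between Day10 and Day12 and fell by 0.97 by Day14.

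Of the 5 lipid genes, Cers3 rose, Sptlc3 and Aloxe3 fell, and Abca12 and Alox12b were not called on Day3. Sptlc3, a subunit of the enzyme that starts sphingolipid synthesis, had 11.1, 15.5, 15.2 and 11.3 FPKM on Day0, 4.13, 3.02, 3.25 and 3.02 on Day3 and 2.40, 2.71, 3.32 and 3.16 on Day14. These days did not overlap Day0, and the log2 fold changes were -1.93 ± 0.13 and -2.32 ± 0.14. Cers3 makes the ultra-long ceramides of the barrier. It had 4.62, 5.78, 5.43 and 4.11 FPKM on Day0, 7.55, 5.62, 6.01 and 5.54 on Day3, 2.98, 2.49, 2.05 and 3.17 on Day10 and 6.11, 6.90, 6.23 and 6.96 on Day12. The Day3 change of 0.36 ± 0.13 (adjusted p = 0.0157) was lost with the 8 libraries alone, with limma at a pseudocount of 0.1 and against Day0 replicates 2 and 3 alone (0.20). It was -0.96 ± 0.13 on Day10 and rose by 1.20 between Day10 and Day12.

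Abca12, which loads lipid into lamellar granules, had 4.82, 7.20, 8.18 and 3.89 FPKM on Day0 and 7.18, 5.71, 5.27 and 5.04 on Day3, and the values overlapped. Its Day3 log2 fold change of 0.00 ± 0.17 was not called. It was 0.51 against Day0 replicates 1 and 4 alone, -0.35 against replicates 2 and 3 alone, and 0.66 relative to the epidermal transcripts, each of them called. It was 6.07, 6.91, 5.93 and 5.77 on Day7, 2.28, 2.21, 1.89 and 2.59 on Day10, 5.42, 6.08, 5.77 and 5.35 on Day12 and 1.57, 2.01, 1.69 and 2.00 on Day14. The log2 steps from Day7 onward were -1.51 ± 0.18, 1.25 ± 0.18 and -1.62 ± 0.18.

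Alox12b and Aloxe3 are lipoxygenases that act in succession on acylceramides. Alox12b had 6.93, 6.79, 8.48 and 5.91 FPKM on Day0, 8.10, 7.08, 6.26 and 6.66 on Day3 and 1.13, 1.67, 2.17 and 1.75 on Day14. Its Day3 difference of 0.06 ± 0.13 was not called, though relative to the epidermal transcripts it was 0.76 and called, and on Day14 it was -2.19 ± 0.14. Aloxe3 had 3.14, 2.35, 3.47 and 3.06 FPKM on Day0, 1.87, 1.53, 1.25 and 1.46 on Day3 and 1.40, 1.51, 1.22 and 1.26 on Day14. Both days lay below every Day0 library, with log2 fold changes of -0.92 ± 0.13 and -1.28 ± 0.13. The Day3 call of Aloxe3 was lost relative to the epidermal transcripts (-0.19).

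Across the time course, the balance of members above and below Day0 shifted with the day. These comparisons share the 4 Day0 libraries. On Day5, 16 members were higher and 14 lower, where the whole table had 29% higher and 30.6% lower. Without Day5 replicate 4 these were 13 and 13. On Day7, 19 were higher and 6 lower, against 25.6% and 24.8%. Without Day7 replicate 4 these were 18 and 6. On Day10, 17 were higher and 16 lower, against 23.5% and 26.9%. On Day12, 17 were higher and 8 lower, against 21.7% and 25.6%, and the 8 became 5 without Day0 replicate 3 and 4 without Day12 replicate 4. The share of members above Day0 was 42.1% on Day5, 50% on Day7, 44.7% on Day10 and 44.7% on Day12, above the share of all genes on each of these days with TMM normalization. On Day14, 9 were higher and 19 lower, against 28.2% and 34.5%, and by the fold limit 3 were higher and 6 lower, against 5.15% and 8.83%. Without Day14 replicate 3 the 9 and 19 were 8 and 19. Median member log2 fold changes were 0.34 on Day7 and -0.31 on Day14. The mean of a member was highest on Day0 for 9 genes, on Day3 for 7, on Day7 for 9, on Day10 for 4 and on Day12 for 9. It was lowest on Day3 for 15 genes, on Day0 for 12, on Day14 for 9 and on Day10 for 2. Relative to the epidermal transcripts the split of higher and lower members was 22 and 5 on Day5, 26 and 3 on Day7, and 21 and 11 on Day10. All genes on that scale were 62.6% higher and 11.7% lower on Day5, 51.1% and 10.1% on Day7, and 59.5% and 9.52% on Day10, with medians of 0.58, 0.36 and 0.47. On that scale the share of members above Day0 was below that of all genes on Day5 and Day10.

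**Figure D5:**
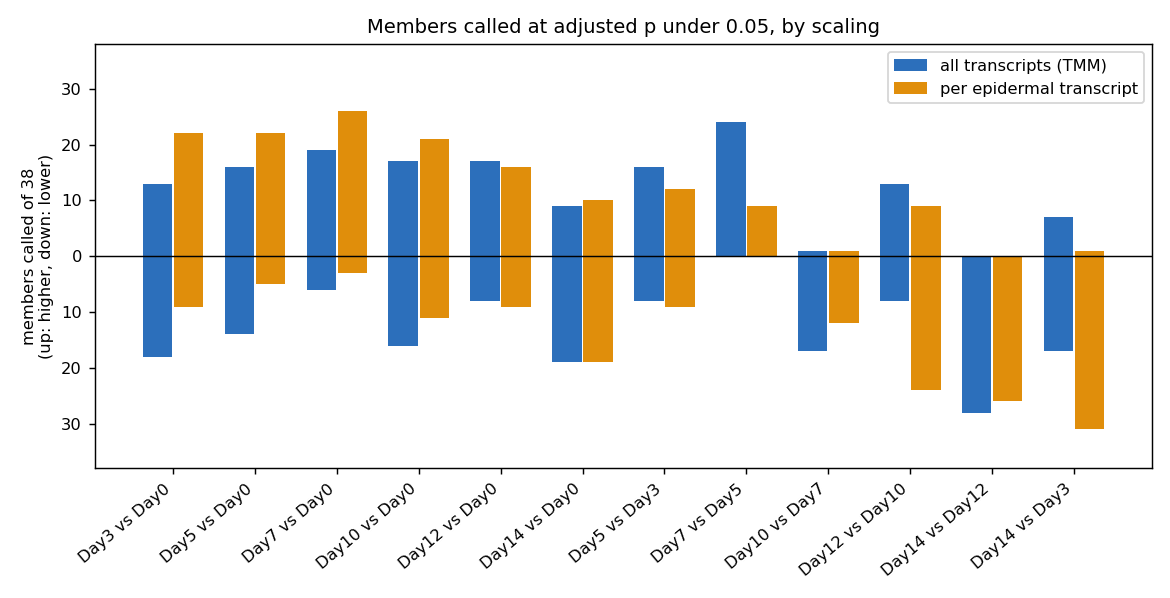
Number of the 38 members called higher (bars upward) or lower (bars downward) in each of 12 comparisons of days, with TMM normalization and scaled to 10 epidermal transcripts. On Day3 against Day0 TMM normalization gives 13 higher and 18 lower, the epidermal scale 22 and 9, and on Day14 against Day0 both scales give 19 lower, where 34.5% and 28.7% of all genes were lower on the 2 scales.

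In 3 of the 5 steps between wound days, nearly all members called moved in the same direction. From Day3 to Day5, 16 were higher and 8 lower, against 12.9% and 11.4% of all genes, and 5 of the 8 that fell were Lce3 genes. In this step Lce1a1 (0.25), Lce1a2 (0.32), Lce1l (0.24) and Ivl (0.53) lost their calls relative to the epidermal transcripts, and Lce3c (-0.74) was called lower. From Day5 to Day7, 24 were higher and 0 lower, against 13.9% and 14.6%. None was lower at an unadjusted p under 0.05 or with DESeq2 or limma either. These 24 included 12 of 14 Lce1 genes, Lor, Ivl, Casp14 and Asprv1. Relative to the epidermal transcripts Lce1a1 (0.29), Lce1b (0.31), Lce1e (0.33), Lce1l (0.35), Lor (0.29) and Casp14 (0.35) were called in this step, while Ivl (0.40), Asprv1 (0.20) and the other Lce1 genes were not. From Day7 to Day10, 1 was higher, Flg, and 17 were lower, against 14.3% and 18% of all genes. Without Day7 replicate 4, 21 were higher from Day5 to Day7 and 13 were lower from Day7 to Day10, and without Day5 replicate 4, 13 were higher and 9 lower from Day3 to Day5. From Day10 to Day12, 13 were higher and 8 lower, against 18.7% and 20.7%, with all 3 corneodesmosome genes, all 3 envelope and crosslinker genes and 4 of 5 lipid genes higher and all 6 Lce3 genes lower. In that step Lor (0.37 ± 0.13) lost its call without Day10 replicate 1 or 3 or Day12 replicate 2 or 3 (0.33 to 0.35). From Day12 to Day14, 0 were higher and 28 lower, against 19.9% and 25.3%, and none was higher at an unadjusted p under 0.05 or with DESeq2 or limma. With TMM normalization the 28 included 12 of 14 Lce1 genes, all 5 lipid genes and all 3 corneodesmosome genes. Day14 against Day3 had 7 higher and 17 lower, against 34.2% and 32.8%.

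These steps depended on the scale in part. Relative to the epidermal transcripts, 9 members were higher and 0 lower from Day5 to Day7, against 5.31% and 31.6% of all genes on that scale. From Day10 to Day12 they were 9 higher and 24 lower, against 5.1% and 71.6%, with a median of all genes of -0.60. In that step 13 members changed sign with a call on either scale. Among them Lor turned to -0.21 and Sptlc3 to -0.07, neither called. Alox12b was 0.07 and not called, which left Abca12 (0.67) and Cers3 (0.63) as the lipid genes called higher, while Aloxe3 (-0.43) was called lower. From Day3 to Day14 they were 1 higher and 31 lower, against 11% and 65.6%, with a median of all genes of -0.67. From Day12 to Day14 the epidermal scale gave 0 higher and 26 lower, against 22.2% and 13%, so not all of the 28 called lower with TMM normalization kept their calls. With no composition normalization the members were 12 higher and 14 lower from Day3 to Day14, against 45.6% and 25.6% of all genes, and 19 higher and 3 lower on Day12 against Day0, against 33.6% and 16.3%. The Krt1 and Krt10 sum, median 1616 CPM on Day5, 2350 on Day7, 1479 on Day10, 2591 on Day12 and 851 on Day14, rose and fell beside these counts, and its part in them was not tested. The 2 keratins differed on Day10. Krt10 had means of 144, 68.3 and 168 FPKM on Day7, Day10 and Day12. Krt1 had means of 352, 306 and 335 FPKM on these days, against 204 on Day0. Other marker sums moved as well, and their part was not tested. The hair follicle sum had medians of 11.0 CPM on Day3, 21.1 on Day5, 1686 on Day7, 333 on Day10, 6380 on Day12 and 6054 on Day14. The fibroblast sum was 22050 CPM on Day3, 41254 on Day5, 58603 on Day7, 60341 on Day10, 48509 on Day12 and 20620 on Day14, and 8 of its 8 genes fell from Day12 to Day14. The skeletal muscle sum was 4574 CPM on Day7, 9269 on Day10 and 7306 on Day12, and 8 of its 8 genes rose from Day7 to Day10. The leukocyte sum was 8416 CPM on Day3 and 982 on Day14. The adipocyte sum was 2655 CPM on Day12 and 4655 on Day14. None of the genes in these marker lists was at 0 in every library of a day.

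Other genes of the same processes gave mixed counts on Day3, when 31.8% of all genes were higher and 34.8% lower, and on Day14, when 28.2% were higher and 34.5% lower. Of 31 other barrier lipid genes, 12 rose and 12 fell. The steepest rises were those of Sgms2 (sphingomyelin synthase, 1.76), Degs2 (a dihydroceramide desaturase, 1.52) and Ugcg (glucosylceramide synthase, 1.34). The steepest falls were those of Acer1 (a ceramidase, -2.11), Elovl4 (a fatty acid elongase, -2.40) and Fa2h (a fatty acid hydroxylase, -2.79). On the epidermal scale, where 64.1% of all genes were higher and 14.2% lower, 19 of these 31 were higher and 8 lower. On Day14, 5 were higher and 18 lower than on Day0.

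Of 20 other junction genes, 3 rose and 15 fell on Day3. Dsg1c (1.69), Dsg3 (0.55) and Dsc2 (0.34), all desmosomal cadherins, rose. The tight junction gene Ocln (-2.15), Dsg2 (-2.55) and Dsg4 (-5.73), a desmoglein of the hair, fell most. Dsg4 had 0 to 6 counts a library on Day3 and 39 to 291 on Day0. The epidermal scale gave 7 higher and 9 lower. On Day14, 6 were higher and 8 lower, and the 8 became 3 without Day0 replicate 1 and 4 without Day0 replicate 4.

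Of 33 other envelope and granular layer genes, 7 rose and 26 fell on Day3. Tgm3 (2.08), Ctsl (1.45) and Cnfn (1.30), a transglutaminase, a lysosomal protease and cornifelin, rose most. Padi1 (-6.10), Tchhl1 (-6.62) and Crnn (-6.72) fell most, on a day when the hair follicle marker sum had a median of 11.0 CPM against 723 on Day0. Padi1 had 1 to 3 counts a library on Day3, Crnn 1 to 9 and Tchhl1 0 to 15. On Day0 these were 32 to 303, 59 to 1230 and 22 to 1672, so the size of each fall depends on the Day0 libraries used. The epidermal scale gave 10 higher and 17 lower. On Day14, 11 were higher and 14 lower.

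Of 26 regulators of epidermal differentiation, 9 rose and 13 fell on Day3, and on the epidermal scale 13 and 8. The AP-1 subunit Fosl1 (2.82), the ETS factor Elf3 (2.04) and Cebpb (1.73), a leucine zipper factor, rose most. The grainyhead-like factor Grhl1 (-1.52), the nuclear receptor Rora (-1.54) and the zinc finger factor Gata3 (-1.96) fell most. On Day14, 14 were higher and 7 lower than on Day0. For reference, Day3 log2 fold changes of the epidermal keratins were -0.91 for Krt1, -2.06 for Krt10, -0.77 for Krt5 and 0.36 for Krt14, which was not called, against 3.33 for Krt6a and 4.46 for Krt16.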

How the data were processed

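RNA came from TRIzol extracts, with VAHTS Universal V6 libraries. The authors deposited raw gene counts and an FPKM table for 28 libraries, 4 a day, and their processing notes name fastp, R 3.2.0 and mm10. The aligner, the counter, the annotation and strand settings were not given in the sources used here. The authors divided counts by gene length and depth to make the FPKM values.

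The members and the gene lists were chosen with earlier results of these data known. Counts were tested with edgeR 4.0.16 in R 4.3.3 (filterByExpr, TMM, 1 mean per day over 28 libraries, glmQLFTest, two-sided), which left 18107 of 29068 genes. A call is a Benjamini-Hochberg adjusted p under 0.05 over all genes tested. Values per library are given for the 17 genes that are not Lce genes and, in each Lce group, for the member with the highest mean, the largest rise and the largest fall on Day3. Of the other lists, the 3 largest and 3 smallest called changes on Day3 are named, with 6 keratins. Alternatives used DESeq2 1.42.0, limma 3.58.1 on log2(FPKM + 1) and log2(FPKM + 0.1), other size factors, scaling to 10 epidermal transcripts (Krt5, Krt14, Krt1, Krt10, Dsp, Jup, Perp, Cdh1, Trp63 and Sfn), other filters, a replicate block, the 8 libraries of both days alone and each library left out. The use of 2 of the 4 Day0 libraries was chosen after the data had been seen. The fitting code was tested on simulated data. Replicates differed by more than counting noise in every pair, with a median chi-square of 1.474 or more where noise alone gives 0.455. Counting intervals cover counting error only.

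For 31 of 38 members the gene length behind the FPKM values lay within 10% of the GENCODE exon length, and levels of the other 7 are less comparable between genes. The Lce1 and Lce3 genes share up to 49.3% of their 50-base windows with another member. No column of another series was present.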

Additional observations from a re-analysis of the deposited data

Results flagged for a closer look

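A library was flagged where it stood far from the other 3 of its day by Dixon's test on log2 CPM. This happened in 16 of 266 groups of a member and a day (6.02%), and chance flags about 1 in 20. Day10 replicate 3 was the low library for 4 genes. Its log2 CPM was 6.469 for Dsg1a (others 6.817 to 6.873), 7.556 for Flg (7.868 to 7.891), 5.981 for Hrnr (6.232 to 6.259) and 6.86 for Rptn (7.123 to 7.147). Day3 replicate 1 was the high library for 3 genes, with 7.739 for Asprv1 (others 7.371 to 7.414), 5.576 for Lce1a1 (4.969 to 5.052) and 3.816 for Lce1e (3.524 to 3.565). Day5 replicate 2 was the low library for 3 genes, with 5.285 for Lce1a1 (others 5.604 to 5.618), 5.742 for Lce1m (6.077 to 6.146) and 0.2045 for Lce3e (1.291 to 1.385), the last with 42 counts.

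Of the remaining 6, Dsc1 was low in Day12 replicate 1 at 6.965 (others 7.019 to 7.029), Lce1a2 was high in Day14 replicate 3 at 5.015 (4.534 to 4.616), Tgm1 was high in Day5 replicate 3 at 5.112 (4.961 to 4.971) and Lce3e was low in Day7 replicate 1 at 1.531 (2.064 to 2.17). On Day0, Lce3a in replicate 1 (-3.698, 1 count) and Lce3e in replicate 4 (-3.234, 2 counts) were flagged against libraries with 0 counts (-4.304).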

How the results depend on the processing

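DESeq2, DESeq2 size factors, no filter and the replicate block left 448 to 452 of 456 member calls as they were. No composition normalization left 425 of 456, limma 412 and 417 of 456, and the 8 libraries of both days alone 404 of 445. Day0 replicates 1 and 4 only left 187 of 228, and replicates 2 and 3 only 202 of 228. Leaving out 1 library kept 3456 of 3648, ended 147 and added 45. Scaling to epidermal transcripts kept 336 of 456, ended 42, added 32 and reversed 46. On that scale members on Day3 were 22 higher and 9 lower, lower members were 5 on Day5 and 3 on Day7, higher members from Day5 to Day7 were 9, lower members from Day10 to Day12 were 24, and Day14 against Day3 had 1 higher and 31 lower. Its Day3 lists had 19 barrier lipid genes higher, 7 junction genes higher and 9 lower, 17 envelope genes lower and 8 regulators lower, with 3 barrier lipid genes higher on Day14. Its reversed Day3 log2 fold changes were 0.14 for Asprv1, 0.55 for Dsc1, 0.26 for Flg, 0.26 for Lce1d, 0.40 for Lce1i, 0.61 for Lce1j and 0.0847 for Lce6a, and from Day10 to Day12, where 13 members reversed, those of Lor and Sptlc3 were -0.21 and -0.066. Of 228 member changes against Day0, 4 reversed with Day0 replicates 2 and 3 only, among them Abca12 (-0.35) and Flg (0.149) on Day3, with Rptn on Day14 and Ivl on Day7. With replicates 1 and 4 only 7 reversed, Dsc1 on Day3 (0.52) and Day5, Cdsn on Day5 and Day12, Ivl on Day5 and Day14 and Asprv1 on Day14. The cause of these changes was not tested.

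Requiring 10 counts in every library removed the 6 Lce3 genes by construction, ended the calls of Tgm1 on Day5 and of Lce1h from Day3 to Day14 and added that of Lce1h from Day5 to Day7. It left 7 higher on Day3, 9 on Day5, 11 on Day10 and 5 on Day14, with 3 lower from Day3 to Day5, 2 from Day10 to Day12 and 10 from Day3 to Day14. Members lower on Day12 were 3 with no composition normalization and with both limma fits, 5 with the 8 libraries alone, and 4 to 7 with 1 library left out. Members higher on Day14 against Day3 were 12 with no composition normalization and both limma fits. With no composition normalization the median of all genes was 0.219 in this comparison and 0.107 on Day12. Junction genes lower on Day14 were 3 with no composition normalization and both limma fits, 4 with the 8 libraries alone, 5 against either pair of Day0 libraries, and 3 to 8 with 1 library left out.

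The replicate numbers do not pair the libraries. Deviations of same-numbered libraries had a mean correlation of 0.00064 (minimum -0.0762), and 15 of 84 comparisons correlated best with their own number. With the replicate block 13 members were higher and 18 lower on Day3. Depth limits Lce3a and Lce3e on Day0, which had 1 and 2 counts.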
